A study of Mus musculus with 4 samples.

Results

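The genes described here encode the translation initiation factors eIF1 to eIF6 and the elongation factors eEF1 and eEF2, together with a few proteins that bind or modify them. They were taken from a whole-transcriptome count table by symbol: every gene whose symbol begins with Eif1 to Eif6, Eef1 or Eef2, leaving out the eIF2 alpha kinases (Eif2ak1 to Eif2ak4) and the sex-linked eIF2 gamma genes (Eif2s3x and Eif2s3y). The rule found 69 of 50600 annotated genes. Of these, 61 were protein-coding genes with a known role in translation or in the control of a translation factor. The other 8 symbols were pseudogenes or a noncoding RNA gene.

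Protein synthesis starts when the small ribosomal subunit, carrying eIF1, eIF1A, eIF3, eIF5 and the initiator tRNA on eIF2, joins an mRNA whose 5′ cap is held by the eIF4 factors. The eIF2B complex recharges eIF2 with GTP after each round, eIF5B joins the large subunit, and eEF1 and eEF2 then deliver aminoacyl-tRNA and move the ribosome along the message. In T cells this machinery is known to be raised on activation, when the cells grow and divide, and the mTORC1 kinase frees the cap-binding protein eIF4E from its inhibitors, the 4E-binding proteins.

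RNA was sequenced from primary regulatory T cells of mouse strain C57BL/6NJ, CD4 T cells that hold other immune cells in check. All 4 libraries formed 1 group, labelled replicates 1 to 4 with the same donor entry, and no genotype, treatment or age contrast was given. The labels point to a protocol for CD4 T cell differentiation, and names inside the file headers carry the words activated and 72 h. Nothing in the labels says that the replicates came from separate animals, so the p-values measure only the spread between these libraries, which may be technical within replicates 1 and 2 and within replicates 3 and 4. Sex-linked transcripts, given below, differed between these 2 sets of libraries, so the 4 did not all come from 1 animal. With 1 group there was no condition to compare. The comparisons made were between genes within each library and of the spread between libraries.

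Total counts on genes were 121477975, 62472060, 73690296 and 51460018 in replicates 1 to 4, and a floor of 3 counts was worth 0.0247 to 0.0583 CPM (counts scaled to a common library total). Floors cover counting error only. The 6 T cell genes examined as markers were Foxp3, Il2ra, Ctla4, Cd4, Cd3e and Trac. All 6 were well above 1 TPM, the usual unit of transcript level (counts divided by exon length and scaled to a common total). Foxp3, the transcription factor that defines regulatory T cells, had a mean of 448 ± 27.8 TPM (SD, n = 4). Whether the other markers tell regulatory from other CD4 T cells was not tested. Summed markers of B cells (3 genes) lay between 0.346 and 1.20 TPM, of myeloid cells (3 genes) between 0.00929 and 0.0966 TPM, of natural killer cells (2 genes) between 0.112 and 0.184 TPM and of erythroid cells (2 genes) between 0 and 0.782 TPM. The markers Lyz2, Ncr1 and Hbb-bs had 0 counts in every library. The 2 CD8 T cell genes summed to 8.70 to 13.4 TPM, nearly all of it Cd8b1, and the 2 epithelial or stromal genes to 2.84 to 4.12 TPM, mostly Epcam. The part of these other cells in the results below was not tested.

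The libraries differed in ways that the labels do not give. Xist, the noncoding RNA of the inactive X chromosome in female cells, was at 172 and 199 TPM in replicates 1 and 2 and at 0.593 and 0.758 TPM in replicates 3 and 4, and the Y-linked Eif2s3y was at 0.0874 and 0.133 TPM against 46.7 and 62.7 TPM. Replicate 2 deviated most from the mean of the 4 libraries for 49.4% of all genes at 1 TPM, against 15.5% to 18.0% for the others, and its deviations followed the GC content of the transcripts, as given at the end for the translation factors. Values of the spread between libraries are therefore given with and without replicate 2.

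Promoters of some of the factors, both high and low in level, held the hexamer CACGTG, the E-box that Myc and other basic helix-loop-helix factors are known to bind. RefSeq promoter sequence (assembly GRCm38.p6, from 250 bases before to 50 after the annotated start) was at hand for 46 of the 69 genes. CACGTG, which reads the same on both strands, lay in the promoter of 12 of these 46 genes (26.1%), against 2187 of 27025 genes in the whole table (8.09%). Among protein-coding genes that reached 1 TPM in every library, it was in 12 of 44 translation factor genes (27.3%) and in 1026 of 8499 other genes (12.1%). The median of mean TPM was 398 for the 12 with the hexamer and 147 for those without. These are counts of letters in a window, not of bound sites, and a gene with several annotated starts was searched at each of them. The genes compared were matched neither on level nor on the number of starts. The 12 genes were Eef2, Eef2k, Eif1b, Eif3a, Eif3f, Eif3k, Eif4a1, Eif4e, Eif4g1, Eif4h, Eif5a and Eif5a2. Windows of 30 bases from 8 of them are printed on the strand of the gene, 5′ to 3′, with the hexamer in capitals, because they cover the translocase, cap-binding, scaffold, helicase and eIF5A genes that the levels below turn on.
Eef2, chr10:81176576-81176605, + strand: acccggcgccgtCACGTGacgcacccaacc
Eif4e, chr3:138527192-138527221, + strand: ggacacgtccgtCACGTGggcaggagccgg
Eif4g1, chr16:20672661-20672690, + strand: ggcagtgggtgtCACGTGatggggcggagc
Eif4a1, chr11:69672595-69672624, - strand: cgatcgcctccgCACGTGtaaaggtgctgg
Eif4h, chr5:134639488-134639517, - strand: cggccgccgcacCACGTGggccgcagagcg
Eif5a, chr11:69921443-69921472, - strand: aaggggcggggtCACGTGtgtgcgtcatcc
Eif5a2, chr3:28781148-28781177, + strand: cagggcgagcttCACGTGacggggcgggac
Eif1b, chr9:120492570-120492599, + strand: cgtgcggacggtCACGTGgcggcggcgcgc

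Counted from the annotated start, the hexamer began at position -24 in Eif1b, -43 in Eef2, -54 in Eif4g1, -64 in Eif4e, -74 in Eif5a, -96 in Eif4h, -117 in Eif5a2 and -189 in Eif4a1. All 8 thus lay upstream of a RefSeq start. Against the gene spans of the count files, the windows of Eif4e, Eif4g1, Eif1b and Eif5a lay inside the gene, since the files' gene models begin farther upstream, and that of Eif4h lay partly inside. Eif4e had 2 RefSeq starts and Eif5a 6, and the other genes shown had 1. Eif4e, Eif4g1, Eif5a and Eif5a2 each held a further CACGTG in their promoters. The paralogs Eif5a and Eif5a2 both carried the hexamer, and their levels per length differed by over 100-fold, as given below. Whether the hexamer bears on level was not tested. A TATAAA within 50 bases upstream of the start was found in 1 gene, Eef2 (2.17% of the 46, against 3.15% of all genes). Among the 44 protein-coding factors at 1 TPM it was in 2.27%, against 1.4% of other such genes. The promoter search that was planned was for a start at C followed by 4 pyrimidines. It found 2 of the 46 (4.35%), against 3.01% of all genes, and 1 of the 44 (2.27%), against 2.95%. How precise the annotated starts are was not tested, and all the positions here rest on them.

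Nearly the whole set of factors was present in these cells, and at high level. Of the 61 protein-coding members, 57 reached 1 TPM in every library (93.4%), against 10640 of 21764 protein-coding genes (48.9%). Counting the pseudogenes, 65 of the 69 symbols had at least 1 count and 60 reached 1 TPM in every library. The median of the 69 mean levels was 130 TPM. Among genes at 1 TPM in every library it was 151 TPM for the translation factors and 32.5 TPM for protein-coding genes as a whole. A mean of at least 100 TPM was reached by 39 of the 60 (65%), against 19.7% of protein-coding genes at 1 TPM, and a mean of at least 1000 TPM by 5, which were Eef1a1, Eef2, Eif5a, Eef1g and Eef1b2. Together the 69 symbols took 3.58%, 3.43%, 3.65% and 3.69% of all TPM in replicates 1 to 4, a mean of 3.59 ± 0.114% (SD, n = 4). In bulk libraries a gene used by more of the cells and a gene with more RNA per cell cannot be told apart. The plot of levels by gene and role shows how narrow the spread between libraries was beside the range of levels between genes.

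**Figure D1:**
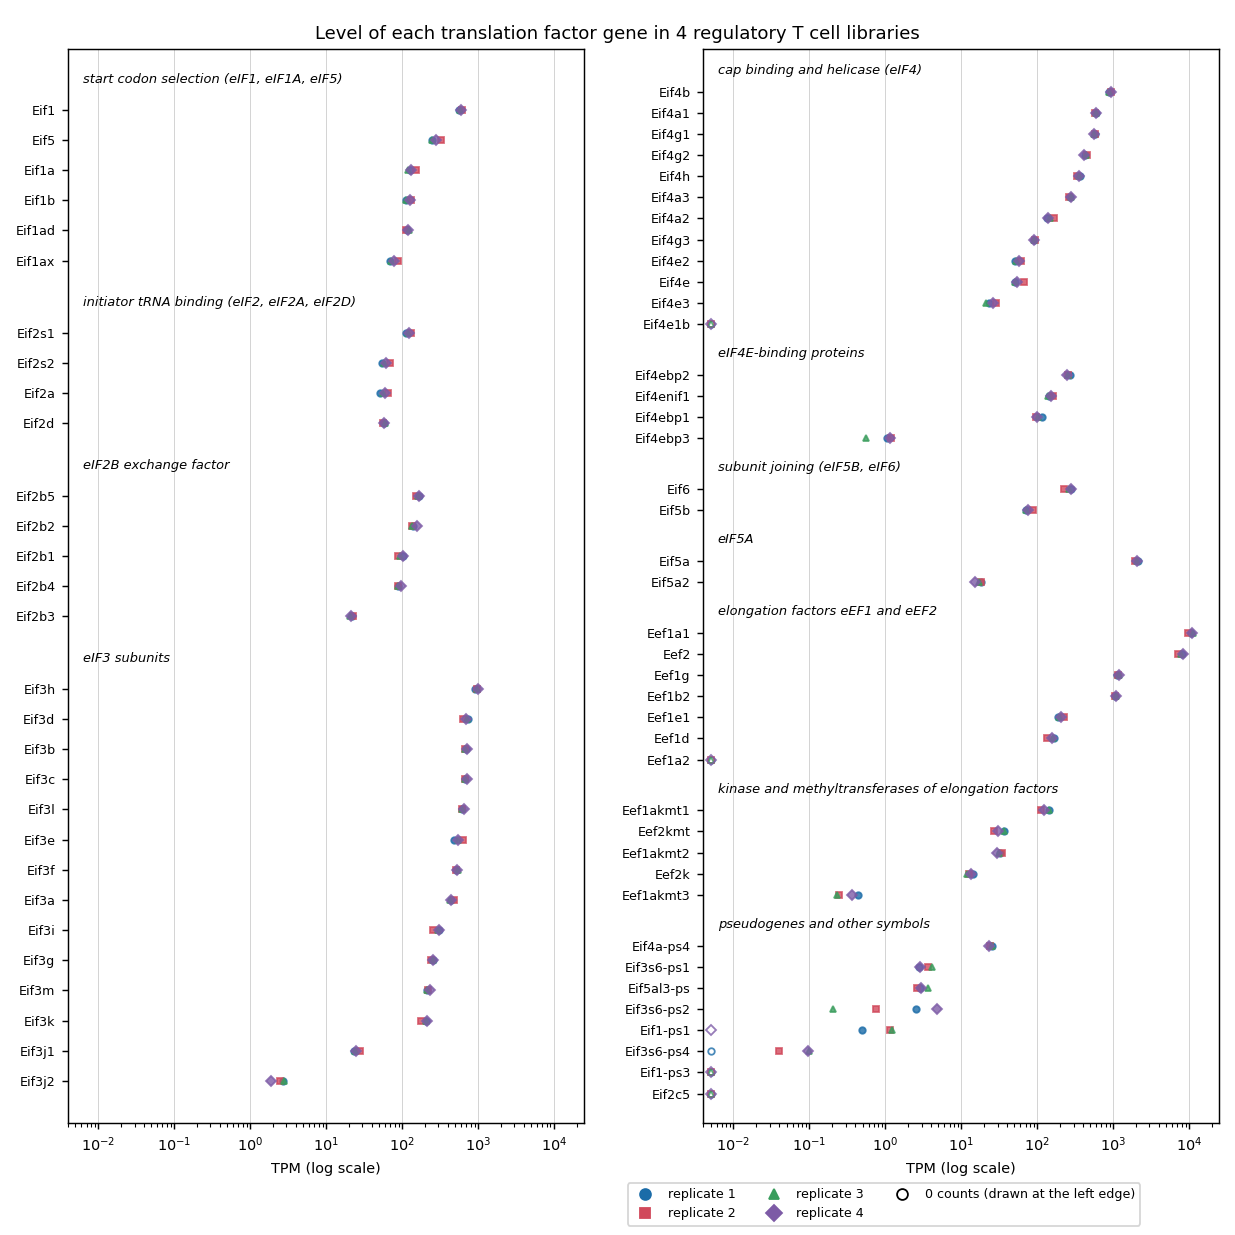
Level of each of the 69 translation factor symbols in TPM (log scale), 1 row per gene and 1 point per library (circle, replicate 1; square, replicate 2; triangle, replicate 3; diamond, replicate 4), grouped by role. Open points at the left edge are libraries with 0 counts; Eef1a1 and Eef2 lie farthest to the right, at means of 10577 and 7780 TPM, while Eef1a2, Eif4e1b, Eif1-ps3 and Eif2c5 have 0 counts in all 4 libraries.

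The factors that open the scanning ribosome and judge the start codon were all above 50 TPM. Eif1, which keeps scanning ribosomes from stopping at wrong codons, was at 566, 610, 576 and 603 TPM in replicates 1 to 4, and its close paralog Eif1b at 111, 131, 112 and 128 TPM. The ranges were far apart. Eif1 exceeded Eif1b by 2.29 ± 0.07 (SD, n = 4) on the scale of log2(TPM + 0.1), used for all differences between genes here, which is 4.89-fold. Eif1a and the X-linked Eif1ax encode forms of eIF1A, which helps to place the initiator tRNA. Eif1a stood at 126, 150, 121 and 130 TPM and Eif1ax at 68.8, 89.6, 71.8 and 78.0 TPM, both highest in replicate 2. Their difference was 0.78 ± 0.06 in favour of Eif1a. Without length normalization, on the CPM scale, it turned to -0.093. Eif5, the GTPase activator of eIF2, was at 274 ± 34.4 TPM with its highest value, 322 TPM, in replicate 2 and the others between 247 and 277 TPM. Eif1ad, an eIF1A-like protein, was among the steadier genes at 118 ± 3.10 TPM.

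Genes for eIF2, which carries the initiator methionyl-tRNA, were of moderate level. Eif2s1, the alpha subunit that stress kinases phosphorylate, was at 114, 132, 120 and 124 TPM, and Eif2s2, the beta subunit, at 54.5, 69.5, 58.4 and 62.0 TPM. Eif2s1 lay above Eif2s2 in each library, by 1.00 ± 0.06 or 2.00-fold. The gamma subunit genes, which are not among the 69, gave a joint level of 95.3, 99.8, 101 and 120 TPM in replicates 1 to 4. Eif2s3x took nearly all of it in replicates 1 and 2, and Eif2s3y supplied 46.7 and 62.7 TPM in replicates 3 and 4. Eif2a and Eif2d encode proteins that can bring initiator tRNA to the ribosome without eIF2. Eif2a was at 50.7, 65.8, 56.3 and 58.9 TPM and Eif2d at 57.7, 56.5, 59.1 and 58.1 TPM, so that their ranges overlapped. The difference was -0.01 ± 0.17, positive in 2 of 4 libraries, with an exact two-sided sign-flip p of 1. On the CPM scale it was -0.27 ± 0.17, with Eif2a below Eif2d in 4 of 4 libraries.

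All 5 subunits of eIF2B, the guanine nucleotide exchange factor of eIF2, were at 1 TPM in every library, with a joint level of 512 ± 23.8 TPM (SD, n = 4). Eif2b5, the catalytic epsilon subunit, was the highest at 165, 152, 163 and 165 TPM. Replicate 2 was the low one there. Eif2b3, the gamma subunit, was the lowest at 21.5 ± 0.728 TPM, so the subunits of this complex spanned 7.53-fold. Eif2b2, Eif2b1 and Eif2b4 lay between, at 141 ± 9.98, 97.2 ± 6.25 and 90.9 ± 4.57 TPM.

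The eIF3 complex, the large scaffold that bridges the mRNA and the small subunit, had the highest joint level among the initiation factor lists, with 14 genes summing to 6171 ± 96.6 TPM (SD, n = 4). Eif3h was the highest at 924, 976, 958 and 986 TPM. Its level is uncertain in part, since 20.3% of the 50-base stretches of its transcripts also occurred in other genes. Eif3d, Eif3b and Eif3c followed at 695 ± 39.4, 689 ± 15.3 and 689 ± 19.1 TPM, and these neighbours in the order overlapped between libraries. Eif3l (622 ± 15.8 TPM), Eif3e (554 ± 59.4 TPM), Eif3f (523 ± 16.5 TPM) and Eif3a (444 ± 22.3 TPM) came next. Eif3i, Eif3g, Eif3m and Eif3k lay between 201 and 293 TPM in the mean.

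Subunits of this complex did not deviate together in replicate 2. Eif3e was at 488, 633, 548 and 549 TPM, highest there, and Eif3a, the largest subunit, at 435, 477, 429 and 435 TPM, likewise. By contrast, Eif3i was at 304, 258, 302 and 309 TPM and Eif3k at 204, 177, 207 and 214 TPM, both lowest in that library. The GC content of the longest transcript was 36.2% for Eif3e, the lowest of the 60 factors at 1 TPM. Annotated transcripts of Eif3e held 6732 different 50-base stretches, beside 1541 counted exon bases, so that GC content may cover sequence that was not counted. The joint level of the 14 genes stayed between 6079 and 6306 TPM.

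Eif3j encodes the loosely held j subunit, and its genes stood well below the others. Eif3j1 was at 23.6, 27.7, 23.9 and 24.8 TPM and its copy Eif3j2 at 2.68, 2.47, 2.79 and 1.87 TPM. Eif3j1 exceeded Eif3j2 by 3.31 ± 0.29 on the log2 scale. Of the 50-base stretches of Eif3j2 transcripts, 90.8% also occurred in Eif3j1, while 36.6% of those of Eif3j1 occurred in Eif3j2. The header of the counts shows no option that counts reads with several places in the genome, so the value of Eif3j2 is uncertain, and that of Eif3j1 in part.

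Among the eIF4 factors, which bind the cap and unwind the leader, the helicase and its helpers were abundant and the cap-binding proteins were not. Eif4b, which stimulates the helicase, was the highest at 871, 926, 892 and 931 TPM, above Eif4h, a related cofactor, at 368, 334, 350 and 354 TPM. The difference was 1.37 ± 0.09, or 2.58-fold. Eif4a1, the main RNA helicase of initiation (mm10 chromosome 11, 69666936 to 69672423, minus strand), was at 600, 576, 596 and 586 TPM. Its paralog Eif4a2 was at 135, 165, 145 and 138 TPM, and Eif4a3, a helicase of the exon junction complex, at 272, 259, 277 and 279 TPM. None of these ranges met. Eif4a1 exceeded Eif4a2 by 2.02 ± 0.15 and Eif4a3 by 1.12 ± 0.04. Of their 50-base stretches, 28.4% for Eif4a1, 10.6% for Eif4a2 and 16.5% for Eif4a3 also occurred in other genes, so these levels are uncertain in part.

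The scaffold gene Eif4g1, whose protein joins cap binding to the helicase and to eIF3, was at 579, 568, 559 and 565 TPM. Eif4g2, whose protein lacks the site for eIF4E and serves cap-independent starts, was at 426, 450, 433 and 418 TPM. Eif4g3 was at 90.2, 92.4, 90.6 and 90.04 TPM, the steadiest of all the factors. Eif4g1 lay above Eif4g2 by 0.40 ± 0.05 and above Eif4g3 by 2.64 ± 0.03. The first of these differences was -0.10 without length normalization, the Eif4g2 exons being longer in all (10166 against 7227 bases).

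Eif4e, the cap-binding protein that limits initiation in many cells (chromosome 3, 138526179 to 138559696, plus strand), was at 50.9, 66.4, 50.2 and 54.4 TPM. Replicate 2 was the high one. Eif4e2, a cap-binding protein tied to repression of translation, was at 51.3, 60.9, 53.0 and 56.9 TPM, and the 2 genes could not be ordered per length. Their difference was -0.01 ± 0.09, with Eif4e higher in 1 of 4 libraries, and the exact two-sided sign-flip p was 0.875 (0.917 when adjusted over the 22 gene pairs by the Benjamini-Hochberg method). On the CPM scale Eif4e lay below Eif4e2 in 4 of 4 libraries, by -0.33 ± 0.09. Eif4e3, a further cap-binding form, was at 22.9, 28.3, 21.3 and 26.0 TPM, below Eif4e by a log2 difference of 1.17 ± 0.08. Eif4e1b, known from germ cells, had 0 counts in every library, which allows up to 0.0372 TPM in the deepest library and 0.0882 TPM in the shallowest.

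Genes for the inhibitors of eIF4E were above Eif4e itself. Eif4ebp2 was at 271, 257, 251.4 and 249 TPM and Eif4ebp1 at 116, 96.7, 104 and 98.3 TPM. Each library placed Eif4ebp2 above Eif4ebp1 and both above Eif4e. Eif4e minus Eif4ebp2 was -2.22 ± 0.20 and Eif4e minus Eif4ebp1 -0.91 ± 0.28. The second difference was 0.54 without length normalization, so that order holds per length only. Eif4ebp3 was near the limit, with 66 counts over the 4 libraries and 1.05, 1.19, 0.549 and 1.16 TPM, and 65.5% of its 50-base stretches occurred in transcripts of other genes. Eif4enif1, which carries eIF4E to the nucleus and to mRNA granules, was at 149 ± 9.55 TPM.

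For the joining of the subunits, Eif6, which keeps the large subunit free until it is needed, was at 277, 226, 261 and 275 TPM and Eif5b, the GTPase that joins the subunits, at 70.6, 86.8, 71.5 and 75.9 TPM. Replicate 2 was the lowest library for Eif6 and the highest for Eif5b. Among the paralog pairs with both genes at 1 TPM in every library, the eIF5A genes were the most unequal. Eif5a, which relieves ribosomes stalled at runs of proline and needs the modified residue hypusine (chromosome 11, 69916714 to 69921958, minus strand), was at 2090, 1915, 2052 and 2075 TPM, rank 26 among protein-coding genes. Eif5a2 was at 17.9, 18.02, 17.2 and 15.2 TPM. Eif5a exceeded it by 6.89 ± 0.15, or 119-fold, per length and by 5.81 ± 0.15 on the CPM scale.

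The elongation factors were the highest of all. Eef1a1, the GTPase that delivers aminoacyl-tRNA (chromosome 9, 78478449 to 78489151, minus strand), was at 10466, 9787, 11215 and 10838 TPM and ranked 1 among protein-coding genes. Eef2, the translocase (chromosome 10, 81176631 to 81182498, plus strand), was at 8004, 7057, 7845 and 8214 TPM, rank 4. Both were lowest in replicate 2. Eef1a1 lay above Eef2 by 0.44 ± 0.06 in the 4 libraries. This order holds per length only: on the CPM scale the difference was 0.029 ± 0.061, and Eef2 was the higher in replicates 1 and 4. The 2 genes together held 51.1 ± 1.37% of all translation factor TPM (SD, n = 4) and 1.38% to 1.62% of all counts. For Eef1a1, 39.4% of its 50-base stretches also occurred in other genes, most often in Gm13456 (24.7%), so its level is uncertain.

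Eef1a2, the form of eEF1A known from muscle and nerve, had 0 counts in all 4 libraries. Set against a floor of 3 counts per library, Eef1a1 was at least 113568-fold higher. The exchange factor of eEF1A is built from Eef1b2, Eef1d and Eef1g. Eef1b2 was at 1067, 1054, 1081 and 1091 TPM and Eef1g at 1106, 1152, 1208 and 1195 TPM. Eef1b2 lay just below Eef1g in every library, by -0.12 ± 0.05, while 44.2% of the Eef1g stretches occurred in other genes. Eef1d was lower, at 166, 134, 160 and 156 TPM, and Eef1b2 exceeded it by 2.81 ± 0.12 or 6.99-fold. On the CPM scale that difference was 1.59 ± 0.12. Eef1e1, whose protein sits in the multi-tRNA synthetase complex, was at 201 ± 17.2 TPM.

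Enzymes that modify the elongation factors were far below their substrates. Eef2k, the kinase that halts eEF2, was at 14.1, 12.4, 12.01 and 13.3 TPM. Eef2 exceeded it by 9.22 ± 0.10, or 595-fold, per length and by 8.07 ± 0.10 on the CPM scale. Eef1akmt1, a lysine methyltransferase of eEF1A, was the highest of these enzymes at 144, 112, 141 and 124 TPM. Eef2kmt, which methylates eEF2, was at 36.7, 27.2, 36.0 and 30.1 TPM, and Eef1akmt2 at 31.9 ± 2.06 TPM. Eef1akmt3 was under 1 TPM in every library (0.319 ± 0.0964 TPM, 83 counts in all).

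Over the 22 gene pairs, 20 had the same direction in all 4 libraries, and the exceptions were Eif4e with Eif4e2 and Eif2a with Eif2d. For each of the 20, the exact two-sided sign-flip test found 2 of 16 sign assignments as large, the fewest that 4 libraries allow. The exact p adjusted over the 22 pairs was 0.1375, and no pair could pass 0.05 in this design. On the CPM scale, 21 pairs had the same direction in all 4 libraries and Eef1a1 with Eef2 did not. The plot of paired differences shows the values of each library.

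**Figure D2:**
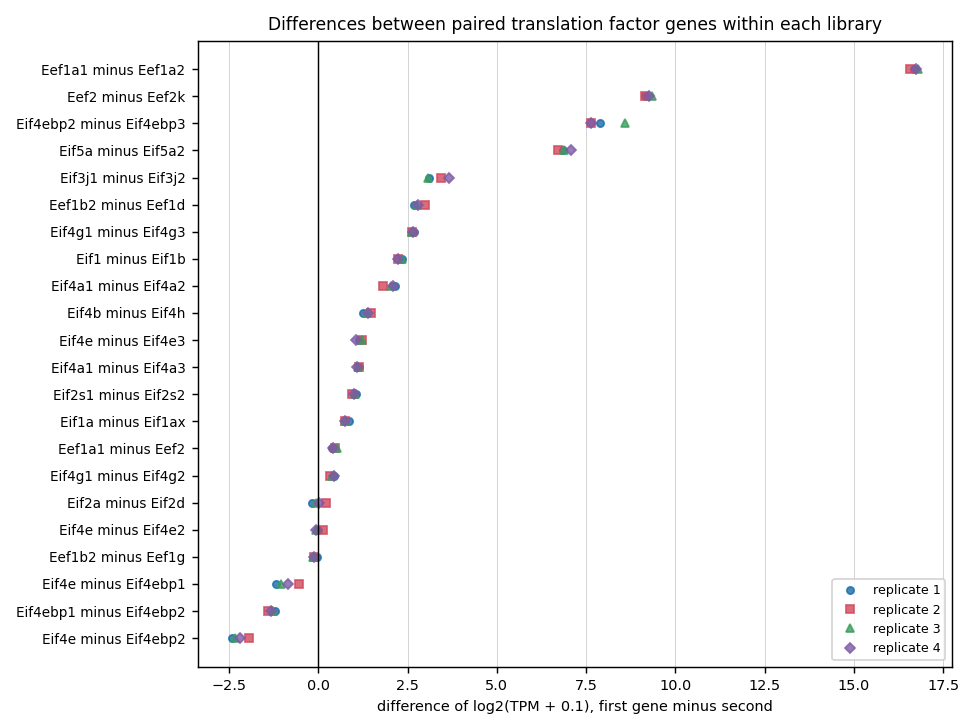
Difference of log2(TPM + 0.1) between the 2 genes of each of 22 pairs (first minus second), 1 point per library, with the vertical line at 0. Points of 20 pairs lie on 1 side of the line in all 4 libraries; Eif4e minus Eif4e2 (-0.08 to 0.12) and Eif2a minus Eif2d (-0.19 to 0.22) straddle it, and for Eef1a1 minus Eef1a2 the position depends on the pseudocount of 0.1, since Eef1a2 had 0 counts.

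Of the 8 other symbols, Eif4a-ps4, Eif3s6-ps1 and Eif5al3-ps reached 1 TPM in every library. Eif4a-ps4, a processed copy of Eif4a1, was at 25.3, 24.1, 25.7 and 23.2 TPM. A share of 95.7% of its 50-base stretches was found in Eif4a1 transcripts, so its reads cannot be told from those of the parent with certainty. Eif3s6-ps1 was at 2.80, 3.65, 4.05 and 2.82 TPM and Eif5al3-ps at 2.88, 2.60, 3.66 and 2.97 TPM. They rested on 140 and 123 counts in all. Of the Eif3s6-ps1 stretches 34.2% occurred in Eif3e, and of those of Eif5al3-ps 23.6% in Eif5a, so these levels are uncertain too. The remaining 5 had between 0 and 40 counts over the 4 libraries. Over all 69 symbols, 21 shared no 50-base stretch with another gene, 45 shared up to 50% and 3 shared more.

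Spread between libraries was small for these genes. The coefficient of variation (SD over mean TPM) had a median of 6.43% over the 60 genes at 1 TPM, against 8.53% over all 11984 genes at that level. Since the spread of counts falls with level, the comparison was repeated at 100 TPM or more, where the median was 4.22% for 39 translation factor genes and 5.69% for 2094 protein-coding genes. A value under 10% was found for 48 of the 60 (80%) and for 58.3% of all genes, and a value over 20% for 0 of the 60 and 12.8% of all genes. Over the same genes without replicate 2, the medians at 100 TPM or more were 3.11% and 3.62%. A value under 10% was then found for 55 of the 60 (91.7%) and 73.0% of all genes, and one over 20% for 2 of the 60 and 9.53% of all genes. The largest were Eif3s6-ps1 (18.8%), Eif3j2 (16.8%) and Eif5al3-ps (14.8%), all under 5 TPM, followed by Eef2kmt (14.2%), Eif4e (13.5%), Eif4e3 (12.7%) and Eif5 (12.6%). The smallest were Eif4g3 (1.21%), Eif4g1 and Eef1b2 (1.48% each). Without replicate 2 the first 4 kept their places, at 22.3%, 20.6%, 13.4% and 10.6%, Eif4e3 was at 10.2%, and Eif4e and Eif5 were at 4.30% and 6.23%. Eif4g3 was again the smallest at 0.339%, with Eif4g1 at 1.82% and Eef1b2 at 1.09%.

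In a test of each gene's spread against the trend over all genes (edgeR's quasi-likelihood dispersion over its prior, Benjamini-Hochberg adjusted p under 0.05), 61 of the 69 symbols could be tested and 0 were called. Over all 13625 genes tested 1 was called (0.00734%), which was Xist (edgeR adjusted p = 1.845e-05). At an unadjusted p under 0.05, 0 of the 61 and 641 genes in all (4.7%) passed, and the dispersion outlier rule of DESeq2 took 0 of the 61 and 43 genes in all (0.316%). A test with limma called 0 of the 61 and 1 gene in all (0.00734%). Eif2s3x, which is not among the 69, was at 95.2 and 99.7 TPM in replicates 1 and 2. In replicates 3 and 4 it was at 53.9 and 56.9 TPM. Eif2s3x was tested with edgeR and was not called, although its dispersion was 22.63 times the trend. A difference of this size could thus go uncalled, and 0 calls do not show that the factors were even between libraries. The lowest p among the factors was that of Eef2kmt, at 0.0763 (edgeR, adjusted p = 0.965). The plot of spread against level places the factors among all genes.

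**Figure D3:**
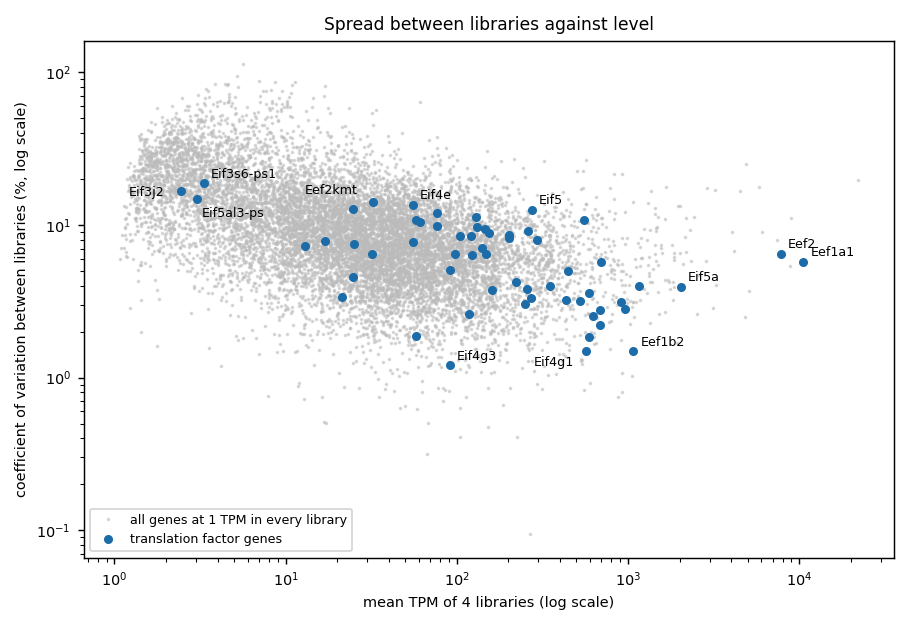
Coefficient of variation of TPM between the 4 libraries (%, log scale) against mean TPM (log scale), with all 11984 genes at 1 TPM in every library in grey and the 60 translation factor genes in blue. The blue points run from 18.8% for Eif3s6-ps1 at 3.33 TPM to 1.21% for Eif4g3 at 90.8 TPM, with a median of 6.43%.

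Replicate 2 held more extremes than any other library. It was the highest of the 4 libraries for 23 of the 60 genes and the lowest for 23, so that 46 (76.7%) had an extreme there. Over all genes at 1 TPM the share was 71.4%. Replicates 1, 3 and 4 held an extreme for 31, 21 and 22 of the 60 (51.7%, 35% and 36.7%). Over all genes at 1 TPM the shares were 46.8%, 47.1% and 34.7%. Genes high in replicate 2 included Eif4e, Eif5, Eif3e, Eif1ax, Eif5b and Eif4e3, and genes low there Eef2, Eif6, Eef1d, Eif3i, Eif3k and Eef2kmt. In log2 units the deviation of replicate 2 from the gene's mean was 0.27 for Eif4e and 0.24 for Eif5, and -0.25 for Eef2kmt and -0.20 for Eif6.

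GC content moved with this pattern. The 23 genes highest in replicate 2 had a median transcript GC content of 42.6% and the 23 lowest there 51.3%. Across the 60 genes, which are not independent replicates and share the 4 libraries, Pearson's r between GC content and the deviation of replicate 2 was -0.69, and across 11967 genes -0.41. In replicates 1, 3 and 4 it was 0.51, 0.13 and 0.42 across the 60, and 0.27, 0.15 and 0.09 across the 11967 genes. Each deviation is taken from the mean of the same 4 libraries, so a fall in replicate 2 comes with a rise among the others. Between log2 exon length and the deviation, r across the 60 was 0.01, 0.26, -0.50 and 0.11 in replicates 1 to 4. With each library's trend over GC content removed, 37 rather than 46 of the 60 genes had an extreme in replicate 2, and the median coefficient of variation was 4.55% rather than 6.43% (6.94% rather than 8.52% over the 11967 genes with a GC value). Without replicate 2 the median was 3.53% over the factors and 5.91% over all genes. The factors thus had the lower median in each case, but these medians were not matched on level. At 100 TPM or more and without replicate 2 they were 3.11% for the factors and 3.62% for protein-coding genes. No such value was computed with the GC trend removed. The plot of deviations against GC content shows all 4 libraries.

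**Figure D4:**
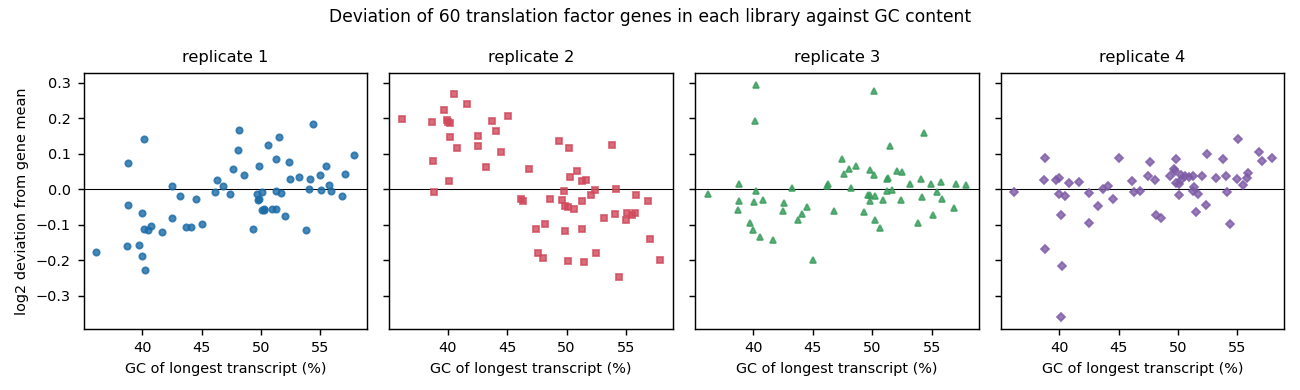
Deviation of log2 TPM from the gene's mean over the 4 libraries against the GC content of its longest transcript (%), 1 panel per library and 1 point for each of the 60 translation factor genes at 1 TPM. Points fall from left to right in replicate 2 (r = -0.69) and rise in replicates 1 (r = 0.51) and 4 (r = 0.42), with less slope in replicate 3 (r = 0.13). The panels share each gene's mean, so their slopes are not independent.

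Partners and regulators of these factors were detected throughout. In 6 lists of partners and regulators, all 46 genes reached 1 TPM in every library, and 0 of the 46 were called for spread by edgeR, beside 0.00734% of all genes. At an unadjusted p under 0.05, 1 gene of the mTORC1 and MNK list and 1 of the poly(A) list passed, beside 4.7% of all genes. Among 6 genes of the eIF2 alpha kinases and the phosphatase regulators that oppose them, Ppp1r15b, the constitutive regulator, was the highest at 164 ± 10.4 TPM (SD, n = 4), and the interferon-induced kinase gene Eif2ak2 the lowest at 23.2 ± 1.24 TPM. Of 10 genes of mTORC1 and MNK signalling, Mknk2, a kinase of eIF4E, was at 687, 531, 665 and 587 TPM, lowest in replicate 2. Mtor itself was at 44.2 ± 1.64 TPM, and Rheb, the GTPase that activates it, was the lowest at 21.2 ± 1.43 TPM. Larp1, which binds terminal oligopyrimidine mRNAs, was at 299 ± 11.6 TPM, and Pdcd4, an inhibitor of eIF4A, at 275 ± 32.9 TPM.

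Of the 8 poly(A) binding and initiation partners, Pabpc1, the cytoplasmic poly(A) binding protein, was at 1054 ± 30.6 TPM (SD, n = 4), and Cyfip1 was the lowest at 30.4 ± 0.877 TPM. The 6 termination and recycling genes ran from Etf1, the release factor eRF1, at 401 ± 43.7 TPM to Gspt2 at 2.44 ± 0.368 TPM. Its paralog Gspt1, which encodes the release factor eRF3a, was at 302 ± 22.7 TPM. The 8 enzymes of the hypusine and diphthamide modifications, which act on eIF5A and eEF2, lay between 9.59 TPM (Dph6) and 74.1 TPM (Dohh), far below the 2033 ± 79.9 TPM of Eif5a. The 8 mitochondrial translation factors lay between 9.37 TPM (Mtrf1) and 164 TPM (Tufm, the mitochondrial elongation factor Tu), so that Eef1a1, its cytosolic counterpart, was the far more abundant transcript.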

How the data were processed

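RNA-seq counts for 4 libraries of 1 group were used as deposited. The authors used featureCounts 1.4.6-p4 to count fragments on GENCODE M13 genes of mm10, paired, both ends mapped and reverse-stranded (setting 2), per the file headers. The aligner's version is not given in the sources used here, and the labels name total RNA but link a poly(A)+ protocol. Exon lengths, one of the other columns deposited, came from the same files. TPM was computed here from counts and length. Of 50600 gene identifiers, 50376 matched a symbol with the version ignored. Gene types, GC content and shared 50-base stretches came from GENCODE M21, whose transcripts can reach beyond the counted M13 exons.

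The members, lists, pairs and tests were chosen with earlier results of these data known. Named were every gene of the pairs, the highest and lowest of each role list, the 3 largest and 3 smallest coefficients of variation, genes outlying in 1 library and pseudogenes at 1 TPM. Further genes named were picked with their values in view. Pairs were compared by an exact sign-flip test on log2(TPM + 0.1), adjusted over 22 pairs.

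The test of spread used edgeR 4.0.16 and R 4.3.3 (TMM, filterByExpr, intercept only, robust prior with 6.54 degrees of freedom), and the script was tested on simulated data. DESeq2 1.42.0, limma 3.58.1, other normalizations and filters, CPM, a pseudocount of 1 and leaving out each replicate were alternatives. Removal of each library's GC trend, and further spread values without replicate 2, were added after seeing the data. Python 3.11.15, pandas 2.3.3, scipy 1.17.1 and matplotlib 3.10.9 were used. A planned comparison of protein sequences was not made. The searches of promoters for CACGTG and TATAAA were not in the plan.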

Additional observations from a re-analysis of the deposited data

Results flagged for a closer look

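The 60 genes at 1 TPM and the 22 pairs were each checked for a single library far from the other 3 (Dixon's criterion, the gap to the nearest library over the whole range). Chance alone marks about 1 in 20 such groups, and 3 genes and 1 pair were marked here. Eif3a was at 477 TPM in replicate 2, against 429 to 435 TPM in the others. Eif3i was at 258 TPM in replicate 2, against 302 to 309 TPM, and Eif2b5 at 152 TPM, against 163 to 165 TPM. The marked library of these 3 genes was replicate 2 each time. The difference of Eif1a and Eif1ax was 0.87 on the log2 scale in replicate 1, against 0.74 to 0.76 in the others.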

How the results depend on the processing

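Of 180 alternative values, 7 changed sign, 7 moved by more than the limit set for them and 166 did neither. Only the differences between paired genes could change sign. The median level was 151 TPM over the 60 genes at 1 TPM, and 126 to 132 TPM when each replicate was left out in turn. The factors' share of all counts was 3.26%, beside 3.59% of TPM. The median coefficient of variation was 4.55% with the GC trend removed and 3.53% to 6.79% when replicates were left out, the lowest without replicate 2. The CPM scale moved the 22 pair differences by a median of 0.74 log2 units and up to 2.53, and 9 of them by over 1. Differences of 3 pairs changed sign on it, which keeps the effect of gene length: Eif4g1 minus Eif4g2 (-0.096), Eif4e minus Eif4ebp1 (0.54) and Eif1a minus Eif1ax (-0.093). Both pairs near 0 (per length) changed sign when replicates were left out, over -0.051 to 0.015 for Eif4e minus Eif4e2 and -0.080 to 0.055 for Eif2a minus Eif2d. On the CPM scale these were -0.33 and -0.27. The count of factors called for spread was 0 under every alternative run. With no filter on low counts 98 genes in all were called (0.424%), and without replicate 2 18 (0.129%). At an unadjusted p under 0.05 the count of factors was 1 of 65 with no filter (6.34% of all genes) and 1 of 61 without replicate 2 (5.6% of all genes). No paired analysis was possible because all libraries formed 1 group. With 4 libraries no pair could pass 0.05.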
